A study of Mus musculus with 8 samples.

Results

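The genes described here are 40 G2/M and mitosis genes, whose products carry a cell from the end of DNA replication through chromosome segregation to cytokinesis. They were chosen by name, not by their values, and all 40 were found among the 17091 features of the deposited table. All 40 also passed the filter on low values (at least 10 in at least 2 libraries), which left 12107 features to test. RNA was sequenced from immortalised mouse skin fibroblasts, which are connective tissue cells adapted to continuous culture. The 4 groups were C57BL/6 (WT) cells in normoxia (21% oxygen), WT cells in hypoxia (1% oxygen), C57BL/6 (mir210lox/lox) cells in normoxia and C57BL/6 (mir210lox/lox) cells in hypoxia. Each group was held at its oxygen level for 24 hours and has 2 libraries, 8 in all. The mir210lox/lox libraries are titled KO, and KO is used here as that group's name, because lox sites only mark DNA that a Cre recombinase can cut out and no Cre is named in the labels. The labels give neither the number of cell lines nor separate cultures for the replicates. Genotype and line of origin therefore cannot be told apart, and a p-value here reflects the scatter among libraries alone, part or all of which may be technical.

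Entry into mitosis is driven by the kinase CDK1 bound to B-type cyclins, which CDC25 phosphatases switch on. Polo-like and Aurora kinases then build the spindle, and checkpoint proteins at unattached kinetochores hold back CDC20 and the anaphase-promoting complex until every chromosome is attached. The genes for these proteins are transcribed late in the cell cycle by B-MYB with the MuvB complex and by FOXM1, largely through a promoter element called CHR (cell cycle genes homology region), often with CCAAT boxes that bind NF-Y. In resting cells the DREAM complex, which shares the MuvB core, represses them. miR-210 is a microRNA that HIF, which drives transcription when oxygen is low, induces, and several mitotic genes (Plk1, Cdc25b, Bub1b, Ccnf and Fam83d) have been reported as its targets.

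Sequence shared by the members is shown first, since it was not used to choose them. RefSeq promoter windows (GRCm38.p6, 250 bases before to 50 bases after the transcription start) were found for 32 of the 40 genes. The CHR letters TTTGAA or TTCGAA, searched on both strands, were present in 26 of the 32 (81.2%), against 21.7% of 27025 genes with a window of this length and 15.9% of the 8792 tested features with a window. CCAAT, also searched on both strands, was present in 25 of the 32 (78.1%), against 41.1% of all genes with a window and 43.5% of the tested features. Both motifs together were found in 23 of the 32 (71.9%), against 8.6% and 6.7%. Matches to the 2 motifs can share at most 1 end letter, and a match describes the sequence only. The 90 bases before the start are printed for 5 members, as examples in which both motifs lie in that stretch, each 5′ to 3′ on the gene's strand with the motif letters in capitals (ATTGG and TTCAAA are CCAAT and TTTGAA read from the other strand).
Cdc20: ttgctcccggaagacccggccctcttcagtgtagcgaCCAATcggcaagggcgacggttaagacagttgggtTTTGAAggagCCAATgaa
Cdk1: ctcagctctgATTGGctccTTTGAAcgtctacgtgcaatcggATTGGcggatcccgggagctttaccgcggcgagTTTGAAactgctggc
Kif11: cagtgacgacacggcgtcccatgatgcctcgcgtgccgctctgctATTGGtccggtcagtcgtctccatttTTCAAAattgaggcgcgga
Prc1: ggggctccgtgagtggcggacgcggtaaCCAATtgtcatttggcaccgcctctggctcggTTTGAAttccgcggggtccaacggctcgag
Top2a: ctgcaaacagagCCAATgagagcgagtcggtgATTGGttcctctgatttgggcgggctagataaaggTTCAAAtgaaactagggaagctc
The Cdc20 stretch is chr4:118437344-118437433 on the minus strand, and its CHR letters begin at position -18 from the start with CCAAT boxes at -53 and -8. The Cdk1 stretch is chr10:69352913-69353002 on the minus strand, with CHR letters at -71 and -15. That of Kif11 is chr19:37376292-37376381 on the plus strand, with CHR letters at -19. That of Prc1, before the second of 2 annotated starts, is chr7:80294386-80294475 on the plus strand, with CHR letters at -30. The Top2a stretch is chr11:99024190-99024279 on the minus strand, with CHR letters at -23. In all 5, a CCAAT box lies upstream of the CHR letters nearest the start.

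The microRNA named in the lox genotype was also compared with the members' 3′ untranslated regions. The mature mmu-miR-210-3p sequence of RefSeq (chr7:141221407-141221428, minus strand, GRCm38.p6, 22 bases) is printed with its seed, bases 2 to 8, in capitals.
mmu-miR-210-3p: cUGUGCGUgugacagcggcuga
The complement of the seed, ACGCACA, was absent after the stop codon in all 39 members with an annotated 3′ untranslated region in the chosen transcript, against a presence of 3.16% in 10643 tested protein-coding genes. The shorter CGCACA was also absent in all 39, against 8.81%. None of the 5 reported mitotic targets held either string in these transcripts. The members' 3′ untranslated regions were shorter, with a median of 528 bases against 958. For ACGCACA, a count of 0 among so few members is close to the background share. For CGCACA the background share is higher, and what part the shorter regions had in its absence was not tested. Absence of these letters says nothing of other kinds of site. Mir210 itself stood at 1, the lowest value in the table, in all 8 libraries, so its level does not check the labels.

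The values are the authors' normalised read counts, rounded to whole numbers, with totals of 7.93 M to 8.68 M per library, and such totals do not show sequencing depth. In the fibroblasts, all 11 fibroblast markers were in the table and summed to 87136 to 118310 per library. Markers of the other cell types that skin cultures can hold summed to 10 to 32 (leukocytes, 4 of 6 in the table), 13 to 45 (endothelium, 5 of 6), 34 to 75 (keratinocytes and epithelium, 6 of 6) and 17 to 33 (melanocytes and Schwann cells, 3 of 6). The defining markers Pecam1 and Krt5 were at 1 or 2 in every library, and Ptprc was at 1 to 6. Other markers of these cell types were higher, among them Cdh1 at up to 38, Tek at up to 27 and Krt10 at up to 26. Lum and Dcn, both fibroblast proteoglycans, were also low, at 1 to 36 and 12 to 93. Vim, Fn1 and S100a4 made up most of the fibroblast sums. As a check on the oxygen labels, 10 of 10 HIF-induced genes (among them Slc16a3, Car9 and Bnip3) were higher in hypoxia over both genotypes at an adjusted p below 0.05 in limma. Among all tested features that share was 0.363%.

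The members were well measured in all 8 libraries. Their lowest value in any library was 184 (Cdc25c) and their highest 16196 (Top2a). Per kilobase of transcript, the mean level over the 8 libraries had a median of 510 among the members, against 89.4 among tested features with a transcript length. Top2a, the topoisomerase that untangles sister DNA, had the highest level per kilobase at 2430. Birc5 (survivin, a chromosomal passenger protein) followed at 1480, Ccna2 (cyclin A2) at 1460, Anln (anillin, of the cleavage furrow) at 1320, Smc4 (a condensin ATPase) at 1160 and Cdk1 at 1050. At the other end stood Cenpf (a kinetochore protein) at 146 per kilobase, Cdc25c at 143, Foxm1 at 126 and Cdc25b at 121. The ratio of a member's highest to its lowest library had a median of 1.81 and ran from 1.37 (Aurkb) to 4.32 (Cenpf).

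A shared movement of these genes lay between libraries of the same group, most of all in WT normoxia. Each gene's deviation from its own mean over the 8 libraries was taken on the scale of log2(value + 1). In WT normoxia, replicate 2 was below replicate 1 for 39 of 40 members, against 50.7% of the tested features, with a median difference of -0.47. In WT hypoxia, replicate 2 was below replicate 1 for 27 of 40, against 50.8%, with a median difference of -0.32. In KO normoxia the order was turned, with 14 of 40 lower in replicate 2, against 50.2%, and a median of 0.31. The 2 KO hypoxia libraries were close together, with 17 of 40 lower in replicate 2, against 47.4%, and a median of 0.02. The members' median deviation was -0.37 in WT normoxia replicate 2, -0.21 in the second WT hypoxia library and -0.19 in the first KO normoxia library. It lay between 0.08 and 0.18 in the other 5 libraries, while the median over all tested features stayed within 0.01 of 0 in every library. These 3 libraries, singled out after the values were seen, held the lowest value of 38 of the 40 members (95%), against 55.3% of all tested features. Estimates given below without the 3 low libraries rest on 1 library in each of WT normoxia, WT hypoxia and KO normoxia. Because the 3 were picked for low member values, their removal itself moves the members' estimates, which are not an independent check. In a bulk culture, fewer cells in G2 and mitosis and less RNA per cell cannot be told apart.

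**Figure D1:**
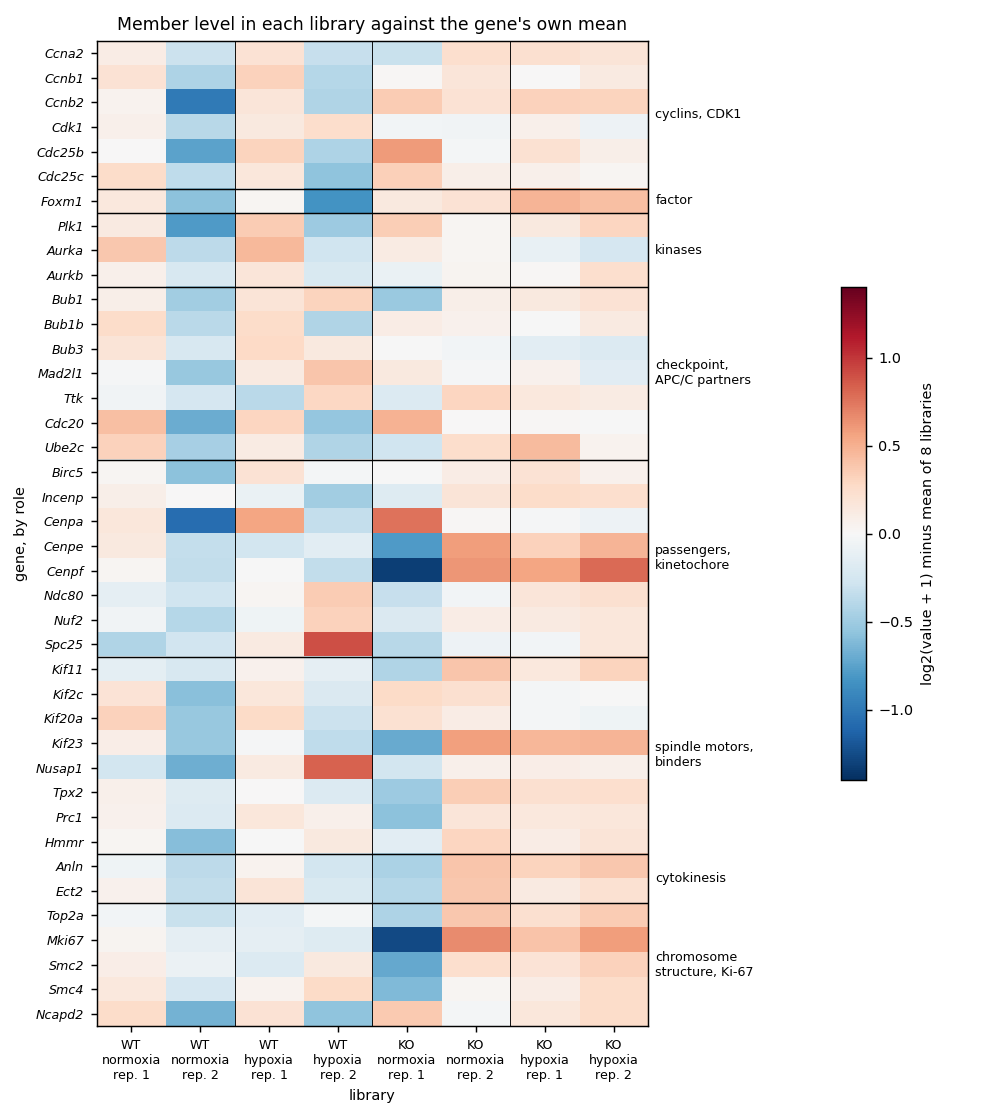
Level of each of the 40 members (rows, grouped by role) in each of the 8 libraries (columns), as log2(value + 1) minus the gene's own mean. Most rows are low in WT normoxia replicate 2, and long genes such as Cenpf and Mki67 are lowest in KO normoxia replicate 1.

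The members were also sorted by the library that held their lowest value. Each gene has only 1 such library, so this sorting cannot show whether the low libraries were low in different genes. In WT normoxia replicate 2, every member except Incenp (0.006) stood below its own mean. Some members were low in all 3 libraries, such as Ccna2, at -0.30 there, -0.33 in the second WT hypoxia library and -0.31 in the first KO normoxia library. Others were not, such as Cdc20, at -0.70, -0.54 and 0.49. WT normoxia replicate 2 held the lowest value of 19 members, against 11.3% of the tested features, with a median transcript length of 2199 bases. Among these was Cdc20, the activator of the anaphase-promoting complex, at 1277 in replicate 1 and 586 in replicate 2. Cenpa, the centromeric histone variant, was at 1138 and 488 in the same libraries, the widest gap in WT normoxia (-1.22 on the log2 scale). KO normoxia replicate 1 held the lowest value of 14 members, against 25.1% of the tested features, with a median transcript length of 4460.5 bases. In that group Cenpf was at 596 in replicate 1 and 2284 in replicate 2, Mki67 (the proliferation marker Ki-67) at 2022 and 7714, and Cenpe (a kinetochore motor) at 1134 and 2956. Cenpa, a short transcript, went the other way there, at 1730 and 1028. The remaining low library, WT hypoxia replicate 2, held the lowest value of 5 members (Bub1b, Ccna2, Cdc25c, Foxm1 and Incenp), against 18.9% of the tested features. It also held the highest value of 8, against 20.8%, so neither count stands out from the table. Among the 8 were Spc25 and Ndc80, which are subunits of the kinetochore's microtubule-binding complex, and Nusap1, a spindle microtubule binder.

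Transcript length moved with the members' replicate difference in both KO groups. It also moved with the level of all tested features, in WT as well as KO libraries. Over all tested features the level changed per doubling of length by -0.162 in KO normoxia replicate 1 and 0.156 in replicate 2, and by -0.022 and 0.131 in KO hypoxia. In WT the slopes were 0.038 and 0.092 in normoxia and -0.09 and -0.143 in hypoxia, so they differed in sign between the oxygen levels. In KO normoxia the members followed the order of that group's slopes. Split at the members' median length of 2986.5 bases, the 20 shorter members had a median difference (replicate 1 minus replicate 2) of -0.12, with 11 of 20 lower in replicate 1. The 20 longer members had a median of -0.76, with 15 of 20 lower. Pearson's r between that difference and log2 length was -0.66 across the 40 genes, which share the same libraries and are not independent replicates. In KO hypoxia the differences were small but r was -0.57, with medians of 0.02 among the shorter and -0.08 among the longer members, 16 of 20 of which were lower in replicate 1. In WT hypoxia r was -0.13. In WT normoxia the gap did not widen with length in this way: replicate 1 minus replicate 2 had medians of 0.55 among the shorter and 0.43 among the longer members (r = -0.31), and replicate 2 was lower for 19 of 20 and 20 of 20. What part RNA quality or library preparation had in these gaps was not tested.

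**Figure D2:**
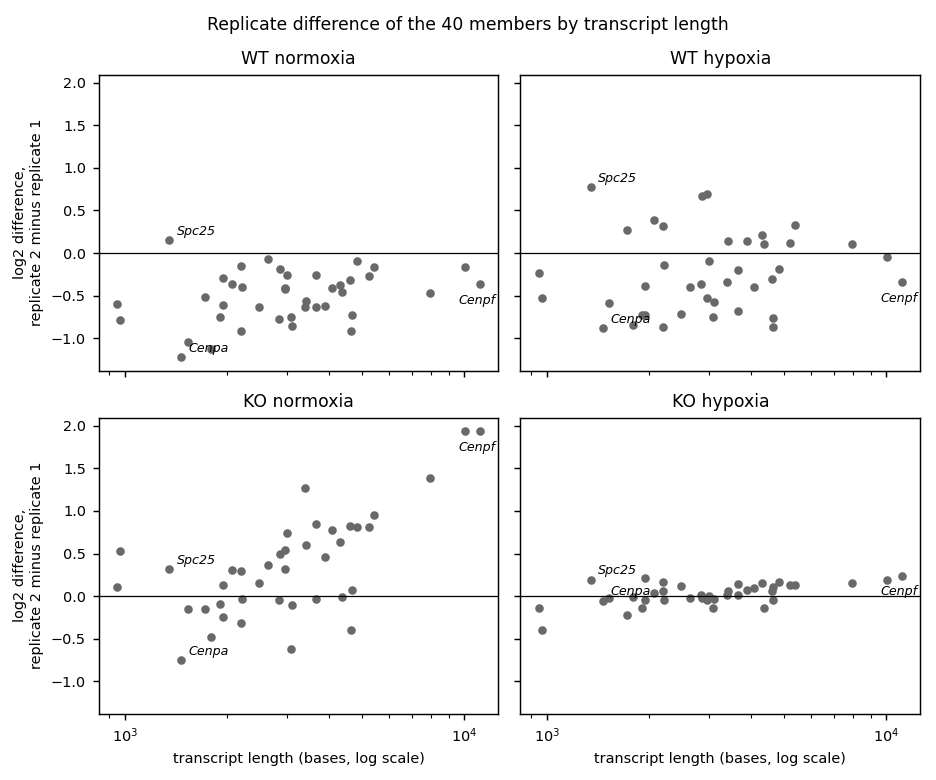
Difference between the replicates of each group (replicate 2 minus replicate 1, log2 scale) for each of the 40 members, against transcript length in bases on a log axis, 1 panel per group. In WT normoxia 39 of 40 points lie below 0, in KO normoxia the points climb with length up to 1.94 for Cenpf, and in KO hypoxia they lie near 0.

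Other gene lists in the same libraries showed how far the movement extended. A list of 69 further mitosis genes had median deviations of -0.28 in WT normoxia replicate 2, -0.07 in the second WT hypoxia library and -0.09 in the first KO normoxia library. A list of 47 S phase and DNA replication genes stood at -0.01, -0.03 and 0.04 in those libraries, and between -0.09 and 0.13 in the other 5. The 11 fibroblast markers had median deviations of 0.41, 0.17 and 0.14, and their summed level was 110762, 118310 and 99428 there. The markers did not move alike. In KO normoxia replicate 1, Fn1 (11176), Dcn (12) and Lum (1) had their lowest values of all libraries, and Vim (35333) and Thy1 (1652) their highest. In the other 5 libraries the 11 markers had medians between -0.32 and 0.06 and sums between 87136 and 105637. The part that the makeup of the cultures had in the members' values was not tested.

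**Figure D3:**
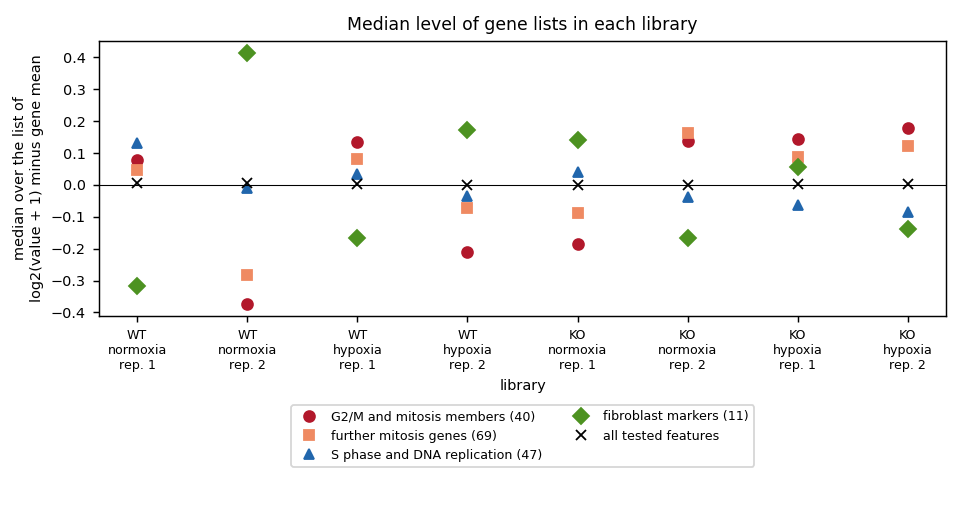
Median deviation of each gene list (log2(value + 1) minus the gene's own mean) in each library. The median of the 40 members is below 0 in WT normoxia replicate 2, WT hypoxia replicate 2 and KO normoxia replicate 1. There the median of the fibroblast markers is above 0, and the S phase list stays between -0.09 and 0.13 in all libraries.

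In WT cells no member passed the test for hypoxia against normoxia (0 of 40 at an adjusted p below 0.05, limma), where 0.107% of the tested features did. At an unadjusted p below 0.05 there were 2 members, Nusap1 and Spc25, against 6.33% of the tested features. The estimated change was above 0 for 30 of 40 members, against 47.8% of the tested features, and its median was 0.10 against -0.02. That median is smaller than the SD between replicates of the members' library median, which was 0.23. Without WT normoxia replicate 2 the median was -0.10, and without WT normoxia replicate 1 it was 0.39. For 30 members the 95% interval of the change lay within 1 log2 unit of 0, that is within a doubling or halving.

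The 2 WT members with the smallest p-values were a kinetochore subunit and a spindle protein. Nusap1 was at 851 and 634 in WT normoxia (replicates 1 and 2, the order used throughout), 1110 and 1802 in WT hypoxia, 853 and 1067 in KO normoxia and 1085 and 1071 in KO hypoxia. Both WT hypoxia libraries were above both WT normoxia libraries, and replicate 2 stood far above replicate 1. The log2 fold change in WT was 0.94 ± 0.28 (SE; adjusted p = 0.705, limma), and 0.59 without WT hypoxia replicate 2. Spc25 was at 757 and 840 in WT normoxia, 1108 and 1890 in WT hypoxia, 773 and 964 in KO normoxia and 990 and 1133 in KO hypoxia. Its WT groups did not overlap either, with a log2 fold change of 0.86 ± 0.28 (SE; adjusted p = 0.767, limma), and of 0.47 without WT hypoxia replicate 2. Mad2l1, the spindle checkpoint protein MAD2, followed with 1061 and 743 in WT normoxia and 1166 and 1408 in WT hypoxia. Its log2 fold change was 0.53 ± 0.24 (SE; adjusted p = 0.785, limma), or 0.27 without WT normoxia replicate 2, and in KO cells it was -0.11. The most negative estimate in WT was that of Incenp, the scaffold of the chromosomal passenger complex. It was at 711 and 675 in normoxia and 631 and 478 in hypoxia, a log2 fold change of -0.33 (adjusted p = 0.849, limma), or -0.13 without WT hypoxia replicate 2. In all, 8 members were higher and 2 lower in hypoxia with no overlap between the WT libraries, against 18.9% and 19.9% of the tested features.

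Of the regulators of mitotic entry in WT cells, Cdk1 was at 4818 and 3498 in normoxia and 5044 and 5411 in hypoxia. Its libraries did not overlap, with a log2 fold change of 0.35 ± 0.24 (SE; adjusted p = 0.848, limma), which was 0.12 without WT normoxia replicate 2. Ccnb1, cyclin B1, was at 469 and 302 in normoxia and at 509 and 309 in hypoxia. The replicate gap there was far wider than the oxygen difference of 0.08. Ccna2, which pairs with CDK1 and CDK2, was at 4591 and 3447 in normoxia and at 4895 and 3391 in hypoxia. Aurka, the centrosomal Aurora kinase, was at 1597 and 953 in normoxia and at 1681 and 1012 in hypoxia. Aurkb, its chromosomal passenger relative, was at 656 and 537 and then at 706 and 539. In each of these last 4 genes replicate 1 was high and replicate 2 low at both oxygen levels, so the oxygen groups overlapped.

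In KO cells no member passed either (0 of 40, limma), where 0.0578% of the tested features did. There was also none at an unadjusted p below 0.05, against 3.2% of the tested features. The estimate was above 0 for 29 of 40 members, against 51.1%, with a median of 0.18 against 0.01. Without KO normoxia replicate 1 that median was -0.01. Cenpf had the smallest p-value, at 596 and 2284 in KO normoxia and 2179 and 2575 in KO hypoxia. Replicate 1 of normoxia was low, while replicate 2 lay between the hypoxia libraries. The log2 fold change was 1.02 ± 0.49 (SE; adjusted p = 0.916, limma), and 0.05 without KO normoxia replicate 1. Mki67 was at 2022 and 7714 in KO normoxia and 6437 and 7317 in KO hypoxia, so both its lowest and its highest library were normoxic. Its log2 fold change was 0.80 ± 0.48 (SE), which turned to -0.17 without KO normoxia replicate 1. With KO normoxia replicate 2 left out instead, the normoxia group was replicate 1 alone, and 4 members passed (Cenpf, Mki67, Cenpe and Smc2, limma), among 6.28% of all features.

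Among the regulators of mitotic entry in KO cells, Cdk1 was at 4459 and 4435 in normoxia and 4807 and 4364 in hypoxia. Ccnb1 was at 413 and 459 in normoxia and 408 and 444 in hypoxia, and Ccna2 at 3433 and 5016 and then at 4957 and 4811. Aurkb was at 586 and 642 in normoxia and 634 and 735 in hypoxia. In all 4 the oxygen groups overlapped. Cdc20 was at 1337 and 956 in KO normoxia and 958 and 948 in KO hypoxia, and at 1172 and 655 in WT hypoxia.

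No member of the KO comparison was called, and the next smallest p-values were those of Smc4 and Ndc80. Ndc80, the subunit that gives the kinetochore's microtubule-binding complex its name, was at 845 and 1035 in normoxia and 1189 and 1235 in hypoxia. The log2 fold change was 0.37 ± 0.22 (SE; adjusted p = 0.916, limma), and the libraries did not overlap. Without KO normoxia replicate 1 it was 0.23. Smc4 in KO cells was at 3230 and 5024 in normoxia and 5321 and 5902 in hypoxia, with a log2 fold change of 0.48 (adjusted p = 0.916, limma), and of 0.16 without that library. The most negative estimate was that of Cenpa, at 1730 and 1028 in normoxia and 1008 and 972 in hypoxia (-0.43). It too rested on KO normoxia replicate 1, and was -0.05 without it. In KO cells 8 members were higher and 6 lower in hypoxia with no overlap, against 15.9% and 16.3% of the tested features. Among the 6 lower were Aurka (1333 and 1247 in normoxia, 1145 and 1040 in hypoxia) and Kif20a, the kinesin of the central spindle (3439 and 3194, then 2925 and 2858).

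**Figure D4:**
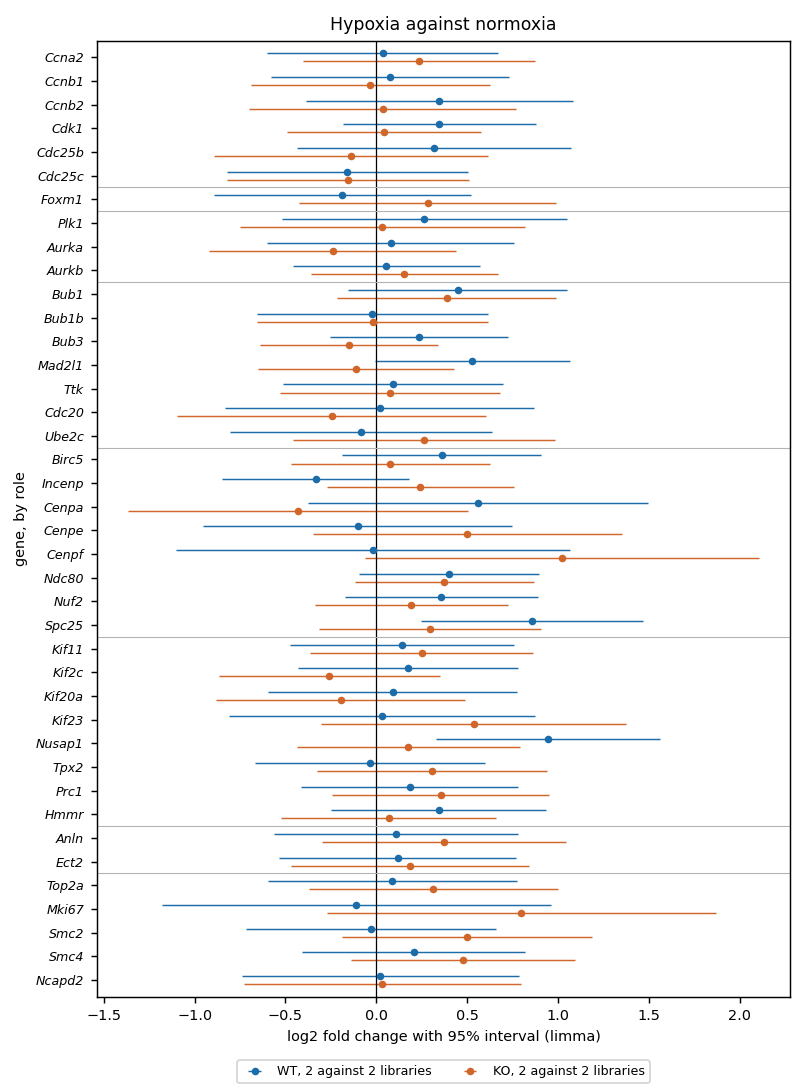
Log2 fold change of hypoxia against normoxia for each member, in WT (blue) and KO cells (orange), with the 95% interval from limma, 2 libraries against 2 in each. Only the WT intervals of Nusap1 and Spc25 exclude 0 before adjustment, and the widest intervals are those of Cenpf and Mki67.

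Taken over both genotypes, 4 libraries against 4, hypoxia again gave 0 of 40 members past the threshold (limma), where 0.363% of the tested features passed. There were 3 members at an unadjusted p below 0.05 (Spc25, Nusap1 and Ndc80), against 5.29%. The estimate was above 0 for 33 of 40 members, against 50.4% of the tested features, with a median of 0.17 against 0.00. The replicate SD of the members' library median gives an SE of 0.16 for 4 libraries against 4, close to that median, which was 0.02 without KO normoxia replicate 1. It was 0.01 without the 3 low libraries. All 4 hypoxia libraries were above all 4 normoxia libraries for 4 members, Bub1, Ndc80, Spc25 and Nusap1, against 2.06% of the tested features, and no member was lower in that way, against 1.65%. Ndc80 ran from 845 to 1035 in normoxia and from 1083 to 1354 in hypoxia, with a log2 fold change of 0.39 ± 0.16 (SE; adjusted p = 0.913, limma). Bub1, a checkpoint kinase of the kinetochore, was at 1340 and 907 in WT normoxia, 1432 and 1578 in WT hypoxia, 886 and 1340 in KO normoxia and 1397 and 1454 in KO hypoxia. That is a log2 fold change of 0.42 ± 0.19 (SE; adjusted p = 0.922, limma). Within WT it was 0.45, or 0.17 without WT normoxia replicate 2, and within KO 0.39, or 0.09 without KO normoxia replicate 1. For Spc25 the estimate was 0.58 ± 0.19 (SE; adjusted p = 0.802, limma), and 0.34 without the 3 low libraries. Nusap1 stood at 0.56 ± 0.20 (SE; adjusted p = 0.814, limma), and at 0.20 without them. Nuf2, the partner of NDC80 in the same complex, had an estimate of 0.28. Spc24, of that complex but not among the 40, overlapped between the oxygen levels in both genotypes. It was at 409 and 283 in WT normoxia, 429 and 371 in WT hypoxia, 570 and 394 in KO normoxia and 428 and 427 in KO hypoxia. Cdc25c, a phosphatase that activates CDK1, had the most negative estimate of the members, -0.16, with 326 and 214 in WT normoxia, 304 and 184 in WT hypoxia, 344 and 289 in KO normoxia and 287 and 279 in KO hypoxia. The 95% interval lay within 1 log2 unit of 0 for 37 members, all except Cenpf, Spc25 and Mki67.

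KO cells were compared with WT cells at each oxygen level, which asks how cells with the lox allele differ from WT cells. In normoxia no member passed (0 of 40, limma), and neither did any tested feature (0%). At an unadjusted p below 0.05 there was 1 member, Ccnb2, against 3% of the tested features. The estimate was above 0 in KO for 31 of 40 members, against 47.6%, with a median of 0.15 against -0.02, and the median was -0.081 without WT normoxia replicate 2. Ccnb2, cyclin B2, was at 859 and 417 in WT normoxia, 931 and 622 in WT hypoxia, 1063 and 958 in KO normoxia and 1040 and 1028 in KO hypoxia. All 4 KO libraries were above all 4 WT libraries, and the 2 WT libraries numbered 2 were the lowest. The log2 fold change in normoxia was 0.75 (95% interval 0.02 to 1.49), and it was 0.16 without the 3 low libraries. Cenpa had the largest positive estimate in normoxia, 0.84, and Cdc25b, the phosphatase that activates CDK1 at the centrosome, one of 0.66. Cdc25b was at 362 and 215 in WT normoxia and 546 and 356 in KO normoxia, so the groups overlapped. Both estimates turned in direction without the 3 low libraries, to -0.15 for Cenpa and -0.024 for Cdc25b. Mki67 had the most negative estimate, -0.26, with 5010 and 4457 in WT against 2022 and 7714 in KO, and it was 0.71 without KO normoxia replicate 1. KO was higher with no overlap for 4 members (Ccnb2, Mad2l1, Kif2c and Nusap1), against 10% of the tested features, and lower for 0, against 11%.

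In hypoxia no member passed either (0 of 40, limma), again with 0% of the tested features. At an unadjusted p below 0.05 there were 2 members, Foxm1 and Incenp, against 7.52% of the tested features. The estimate was above 0 for 31 of 40, against 49%, with a median of 0.16 against -0.01. Without WT hypoxia replicate 2 the members' median was -0.0031. Foxm1, the transcription factor of the late cell cycle, was at 622 and 377 in WT normoxia, 574 and 315 in WT hypoxia, 616 and 648 in KO normoxia and 781 and 756 in KO hypoxia. The 2 WT libraries numbered 2 were low, and both KO hypoxia libraries were above every other library. The log2 fold change between the genotypes in hypoxia was 0.85 (95% interval 0.14 to 1.56; adjusted p = 0.641, limma), and 0.42 without WT hypoxia replicate 2. Incenp was at 631 and 478 in WT hypoxia and 802 and 791 in KO hypoxia. That is a log2 fold change of 0.54 (95% interval 0.02 to 1.05; adjusted p = 0.642, limma), and of 0.34 without WT hypoxia replicate 2. Cenpf, at 1481 and 1170 in WT hypoxia and 2179 and 2575 in KO hypoxia, had an estimate of 0.85 with a wide 95% interval of -0.24 to 1.93. Among the other genes without overlap, Mki67 was at 4456 and 4301 in WT hypoxia and 6437 and 7317 in KO hypoxia, and Top2a at 11206 and 12202 against 14507 and 15936. Anln was at 6148 and 4971 against 7377 and 7698, and Kif11, the motor that separates spindle poles, at 2324 and 2039 against 2477 and 2773. In these genes the KO hypoxia libraries lay above the WT hypoxia libraries without overlap. In normoxia the order was not kept, since KO replicate 1 was the lowest library of each: Top2a was at 12088 and 10010 in WT and 9236 and 16196 in KO, and Kif11 at 2037 and 1909 against 1663 and 2922. Of other long transcripts, Cenpe, Kif23, Tpx2 and Smc2 were also higher in KO hypoxia without overlap, and Cdk1 was lower. Of the transcripts below the members' median length, Ccnb2 and Incenp were higher without overlap, and Bub3, Mad2l1 and Nusap1 were lower. The libraries of Ncapd2, Smc4 and Ect2 overlapped, with higher means in KO. Over all tested features the level changed per doubling of length by -0.09 and -0.143 in WT hypoxia and by -0.022 and 0.131 in KO hypoxia. What part transcript length had in these genotype differences was not tested. Spc25 had the most negative estimate, -0.45. In all, 12 members were higher and 4 lower in KO without overlap, against 26.2% and 24.5% of the tested features.

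**Figure D5:**
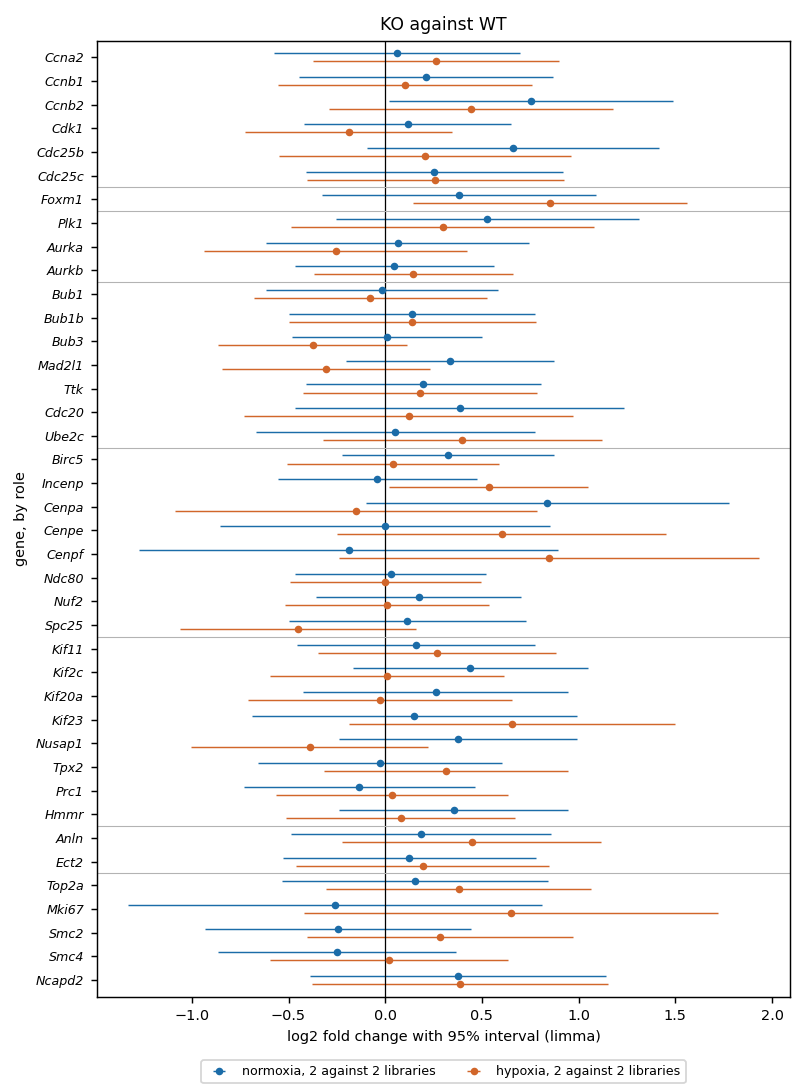
Log2 fold change of KO against WT for each member, in normoxia and in hypoxia, with the 95% interval from limma, 2 libraries against 2 in each. Before adjustment the interval excludes 0 for Ccnb2 in normoxia and for Foxm1 and Incenp in hypoxia.

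Over both oxygen levels KO differed from WT for 0 of 40 members (limma), where 0.0248% of the tested features passed (0.0165% higher and 0.00826% lower in KO). At an unadjusted p below 0.05 there were 2, Foxm1 and Ccnb2, against 6.07%. The estimate was above 0 for 32 of 40 members, against 47.8%, with a median of 0.19 against -0.01, and of 0.06 without the 3 low libraries. Foxm1 had a log2 fold change of 0.62 (95% interval 0.12 to 1.12; adjusted p = 0.699, limma), and Ccnb2 one of 0.60 (0.08 to 1.12; adjusted p = 0.742, limma). Without the 3 low libraries these were 0.24 and 0.15. Both WT libraries numbered 2 are among those 3, which were picked for low member values, so the choice itself moves these estimates. Ccnb2 was the only member whose 4 KO libraries lay above all 4 WT libraries, against 1.95% of the tested features, and no member lay below in that way, against 1.7%. Bub3, a checkpoint protein that binds BUB1, had the most negative estimate, -0.18, with 1782, 1347, 1911 and 1739 in the WT libraries (normoxia, then hypoxia) and 1577, 1540, 1427 and 1385 in the KO libraries. The interval lay within 1 log2 unit of 0 for 36 members, all except Ccnb2, Foxm1, Cenpa and Cenpf.

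The difference between the hypoxia responses of KO and WT cells was tested as an interaction in the same model. No member passed (0 of 40, limma), nor did any tested feature (0%), and no member had an unadjusted p below 0.05, against 3.14%. The estimate was above 0 for 20 of 40 members, with a median of -0.01. The widest estimates were those of Cenpf (1.04, 95% interval -0.50 to 2.57), Cenpa (-0.99, 95% interval -2.31 to 0.33) and Mki67 (0.91, 95% interval -0.61 to 2.42). The smallest p-values belonged to Nusap1, with an estimate of -0.77, Mad2l1 with -0.64 and Incenp with 0.58. For Cenpf the estimate was -0.10 without WT hypoxia replicate 2 and KO normoxia replicate 1. The interval lay within 1 log2 unit of 0 for 9 members only, so this comparison was the least precise, with standard errors of 0.31 to 0.69.

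The mitotic genes reported as miR-210 targets were examined with the members they overlap. Plk1, the polo-like kinase, was at 473 and 250 in WT normoxia, 558 and 306 in WT hypoxia, 554 and 444 in KO normoxia and 480 and 537 in KO hypoxia. The WT libraries numbered 2 were low, and the oxygen groups overlapped in both genotypes. Its log2 fold change in hypoxia was 0.26 ± 0.35 (SE) in WT and 0.03 ± 0.35 (SE) in KO. Bub1b, the checkpoint protein BUBR1, was at 1560 and 1005 in WT normoxia, 1560 and 975 in WT hypoxia, 1397 and 1360 in KO normoxia and 1295 and 1426 in KO hypoxia. Both of its hypoxia estimates were -0.02, with an SE of 0.29. Cdc25b was at 451 and 268 in WT hypoxia and 420 and 382 in KO hypoxia, with estimates of 0.32 in WT and -0.14 in KO. Of the targets that are not among the 40, Ccnf (cyclin F) was at 1557, 922, 1522 and 936 in the WT libraries (normoxia, then hypoxia) and 1328, 1128, 1141 and 1173 in the KO libraries. Fam83d, a spindle protein, was at 554, 362, 558 and 345 and at 418, 439, 440 and 428. The 5 genes had a median of -0.01 for hypoxia in WT and of -0.02 in KO. In each, 0 of 5 passed (limma), where 0.107% (WT) and 0.0578% (KO) of the tested features did. For the difference of the responses, KO minus WT, their median was -0.08, with 0 of 5 past the threshold (limma), against 0% of the tested features. For KO against WT their median was 0.14 in normoxia, in hypoxia and over both oxygen levels. Estimates above 0 numbered 4, 3 and 3 of 5, against 47.6%, 49% and 47.8% of the tested features. In each of these 3 comparisons 0 of 5 passed (limma), against 0%, 0% and 0.0248%.

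Some further members, of the spindle, the chromosomal passengers, the anaphase-promoting complex and condensin, had libraries that overlapped between the oxygen levels in 1 or both genotypes. Kif20a was at 3720 and 2057 in WT normoxia and 3589 and 2416 in WT hypoxia, again with replicate 2 low. Tpx2, which activates Aurora A on the spindle, was at 2147 and 1795 in WT normoxia, 2051 and 1790 in WT hypoxia, 1437 and 2582 in KO normoxia and 2376 and 2391 in KO hypoxia. Its lowest library was KO normoxia replicate 1. Ube2c, the ubiquitin-conjugating enzyme of the anaphase-promoting complex, was at 491 and 285 in WT normoxia, 424 and 294 in WT hypoxia, 323 and 465 in KO normoxia and 534 and 406 in KO hypoxia. Birc5 was at 1412 and 935 in WT normoxia, 1600 and 1361 in WT hypoxia, 1387 and 1495 in KO normoxia and 1591 and 1449 in KO hypoxia. Smc4 was at 5462 and 4201 in WT normoxia and 5131 and 5941 in WT hypoxia. Its 2 condensin partners differed from each other: Smc2 was lowest in KO normoxia replicate 1 (2234 against 4315 in replicate 2), while Ncapd2 was lowest in WT normoxia replicate 2 (1280 against 2418 in replicate 1) and highest in KO normoxia replicate 1 (2615).

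Other parts of the cell cycle machinery were compared by count alone. Of the 69 further mitosis genes in the table, 0 passed the test for hypoxia over both genotypes or for KO against WT over both oxygen levels (limma), and 3 and 2 had an unadjusted p below 0.05. Their medians were 0.09 and 0.10, with 49 and 53 of 69 above 0. In the same order, 0.363% and 0.0248% of all tested features passed (limma), and 5.29% and 6.07% had an unadjusted p below 0.05. Estimates above 0 made up 50.4% and 47.8% of them. These shares are the background for each list below. The list of 16 genes for the anaphase-promoting complex, which are subunits and the regulators Fzr1 and Fbxo5, had medians of 0.01 and 0.05. It had 0 past the threshold and 1 at an unadjusted p below 0.05 in each comparison. The 22 MuvB, DREAM and E2F regulators had medians of 0.03 and -0.01, with 0 past the threshold and 1 and 0 before adjustment. For the 17 G1/S cyclins, CDKs and CDK inhibitors the medians were -0.07 and -0.01, with 0 past the threshold and 0 and 1 before adjustment. The 47 S phase and DNA replication genes had medians of -0.04 and -0.11, with 16 and 14 of 47 above 0, 0 past the threshold and 1 before adjustment in each. The S phase medians thus lay below 0 in both comparisons, where those of the 40 members were 0.17 and 0.19, and the difference between the lists was not tested.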

How the data were processed

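Total RNA was extracted with a miRNeasy kit and made into libraries with an NEBNext small RNA set for SOLiD, per the labels' protocols. The deposited values are scores: the authors' normalised read counts rounded to whole numbers, with a minimum of 1. Which aligner, build, strand setting and normalization the authors used is not given in the sources used here. Reads of overlapping genes or near-identical copies may be shared, and depth is unknown. No sample columns were left unused (0). Analysis was on the scale of log2(value + 1), which understates the fold change of low genes. Features at 10 or more in at least 2 of 8 libraries were tested (12107; 4984 were not).

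With limma 3.58.1 in R 4.3.3, 1 linear model held the 4 group means over the 8 libraries (trended prior, 10.2 degrees of freedom). Contrasts gave 7 comparisons. P-values are two-sided, with Benjamini-Hochberg adjustment across every tested feature of a comparison and a threshold of 0.05. The code was tested on simulated data. An exact test of 2 libraries against 2 cannot go below 0.333, so the test rests on the spread shared over groups. Gene positions and transcript lengths came from GENCODE M21 (GRCm38), using the transcript with the longest coding sequence, and were found for 93.1% of tested features.

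Members with values by library are 1 or more per role, and in each comparison the 3 with the smallest p-value and the largest change in each direction. The members and lists were chosen with earlier results of these data known. Alternatives covered the pseudocount, the filter, the scaling, the limma settings, the replicate number as a block, transcript length and left-out libraries. Those leaving out the 3 low libraries, and the block with a length correction or with the compared libraries alone, were chosen after seeing the data.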

Additional observations from a re-analysis of the deposited data

How the results depend on the processing

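In all 7 comparisons 0 members passed under pseudocounts of 0.5 and 10, no filter, a filter at 50, quantile normalisation, median centring, limma without a trend, library weights, removal of the length trend and the replicate block. Leaving out 1 library gave 0 to 4 members past the threshold: 4 for hypoxia in KO without KO normoxia replicate 2, and 0 in every other case. The members' median then ran from -0.10 to 0.39 for hypoxia in WT (0.39 without WT normoxia replicate 1) and from -0.081 to 0.35 for KO against WT in normoxia (-0.081 without WT normoxia replicate 2). In that normoxia comparison Mki67 ran from -1.22 to 0.71 with 1 library left out (0.71 without KO normoxia replicate 1, also with WT hypoxia replicate 2 left out), and was 0.62 without the 3 low libraries. Without those 3, Cenpa was -0.15 and Cdc25b -0.024 there, and Cdc25b was -0.10 over both oxygen levels. The response difference of Cenpf was -0.10 without WT hypoxia replicate 2 and KO normoxia replicate 1. For Cdc25c, hypoxia over both genotypes ran from -0.34 to 0.023 with 1 library left out (0.023 without WT hypoxia replicate 2), and was 0.086 without both. The cause of these turns was not tested.

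Equal replicate numbers were not taken to pair the samples, since not every pair of groups correlated. Over tested features the replicate differences of the oxygen groups correlated at 0.57 in WT and 0.23 in KO. Between genotypes they correlated from -0.11 (KO normoxia with WT hypoxia) to 0.11 (KO normoxia with WT normoxia). Over the 40 members all were above 0, from 0.17 (KO hypoxia with WT hypoxia) to 0.70 (WT normoxia with WT hypoxia). The main fit left any shared replicate difference in its scatter. The replicate block over all 8 libraries called 0 members in all 7 comparisons. With only the compared libraries and the replicate block it called 1 member for hypoxia in WT (Spc25, adjusted p = 0.0481, limma; 2.1% of features) and 2 for KO against WT in hypoxia (Cenpf, adjusted p = 0.0207, and Foxm1, adjusted p = 0.0229, limma; 3.73% of features). Depth is unknown, so counting error could not be separated from other spread.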
